A study of Mus musculus with 8 samples.

Results

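Interleukin-2 and the chains of its receptor were followed across the libraries of the series as 4 genes, Il2, Il2ra, Il2rb and Il2rg, taken by symbol from a table of 54532 genes. All 4 members passed the low-count filter that left 13981 genes for testing. They were selected on counts and fold changes of the same 8 libraries, which were in view when the group was proposed, so their differences between the groups are given as descriptions, with errors and no test. The libraries came from spleen CD4+ T cells (helper T cells) of wild-type mice, 4 given vehicle and 4 given dimethyl succinate, a cell-permeable ester of the tricarboxylic acid cycle intermediate succinate, for 3 days. The dose, the age and sex of the mice, the stimulation of the cells and whether libraries came from separate animals or cultures were not given in the labels, so the spread between libraries may be technical. The series title sets the work in CCL1 production, T cell infiltration and renal fibrosis.

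Interleukin-2 is a growth and survival factor that helper T cells secrete after engagement of the T cell receptor and of CD28. Il2ra encodes the alpha chain (CD25), which binds the cytokine but does not signal. Il2rb encodes the beta chain (CD122), shared with the interleukin-15 receptor, and Il2rg the common gamma chain (CD132), shared with the receptors for interleukins 4, 7, 9, 15 and 21. The beta and gamma chains bind the kinases JAK1 and JAK3, which phosphorylate STAT5, and the alpha chain raises the affinity of the complex. Regulatory T cells carry much of the alpha chain and make little interleukin-2.

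Transcripts of helper T cells were abundant in the libraries, with Cd4 at 414 ± 65.4 CPM (counts scaled to library size with TMM factors) in the vehicle group and 470 ± 15.5 in the dimethyl succinate group (SD, n = 4). Cd8a and Cd8b1, which mark cytotoxic T cells, had 0.866 ± 0.162 and 4.89 ± 0.124 CPM under vehicle and 1.08 ± 0.214 and 5.67 ± 0.836 under dimethyl succinate. The 10 markers of cytotoxic T cells and natural killer cells summed to 58.8 to 79.7 CPM under vehicle, 58.8 to 66.3 without replicate 4, and 72.1 to 83.3 under dimethyl succinate. Total counts ran from 13407295 to 16688854 per library. Vehicle replicate 4 stood apart, with 0.252% of its counts mitochondrially encoded against 1.16% to 1.48% in the other 7 libraries, and a mean correlation with the others of 0.9812 against 0.989 to 0.9906. Values are therefore given with and without it. The quasi-likelihood test of edgeR called 0 of 13981 genes (0%) at an adjusted p of 0.05 and left 805 (5.76%) with p below 0.05 before adjustment, called nominal here, while DESeq2 called 4 and limma-voom 0. Without vehicle replicate 4 edgeR called 28 of 14232 (0.197%), and 0 of the 4 members were among them. Of the 9 cytotoxic and natural killer cell markers tested, 6 had a log2 fold change above 0, or 4 without vehicle replicate 4, with a median of -0.027. Of all tested genes 49.6% and 50% did. Nominally higher with all 8 libraries was 1, against 2.93% of all tested genes. It was Nkg7, a granule protein gene, at 45.7 ± 9.56 and 55.5 ± 5.13 CPM (SD, n = 4). Nkg7 made up most of the marker sums given above. Its log2 fold change without vehicle replicate 4 was 0.44 ± 0.0752 (SE), with an edgeR adjusted p of 0.00831, and the part of these markers in the levels of the members was not tested.

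The deposited coordinates of all 4 members equal those of GENCODE M21, which annotates mouse GRCm38. Il2 (ENSMUSG00000027720) is on chromosome 3 from 37120523 to 37125959 (minus strand), with 1144 exon bases in 4 blocks. Adad1, on the opposite strand, overlaps its span but none of its exon bases. Il2ra (ENSMUSG00000026770) is on chromosome 2 from 11642807 to 11693193 (plus strand), with 5711 exon bases. Il2rb (ENSMUSG00000068227) is on chromosome 15 from 78479256 to 78495271 (minus strand), with 4287. Il2rg (ENSMUSG00000031304) is on chromosome X from 101264378 to 101268255 (minus strand), with 2387, of which 30.5% also belong to the read-through gene model Gm20489 on the same strand. Gm20489 had 0 to 2 counts per library, and how reads in the shared exons were assigned was not given. Of windows of 50 bases, Il2 transcripts share 12.6% with a transcript of Ntan1, which had 365 to 464 counts per library.

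The sequences just before the start sites of 3 members are shown because the groups lay further apart for Il2 than for the receptor chains and because this stretch of Il2 is a textbook target of T cell receptor signalling. They are from RefSeq on GRCm38.p6, read 5′ to 3′ on the gene's strand, and run from 250 to 6 bases before the RefSeq start. That start lies 5 bases from the start in the deposited table for Il2, 15 bases for Il2ra and 0 for Il2rg, and all positions here count from the RefSeq one. Capitals mark matches on either strand to GGAAA, the core bound by NFAT, or to a form of the NF-kB site that begins GGGA, ends CC and has any 4 bases between. The Il2 stretch is chr3:37125960-37126204, that of Il2ra chr2:11642542-11642786 and that of Il2rg chrX:101268261-101268505. Il2rb was not among the sequences used here.
Il2: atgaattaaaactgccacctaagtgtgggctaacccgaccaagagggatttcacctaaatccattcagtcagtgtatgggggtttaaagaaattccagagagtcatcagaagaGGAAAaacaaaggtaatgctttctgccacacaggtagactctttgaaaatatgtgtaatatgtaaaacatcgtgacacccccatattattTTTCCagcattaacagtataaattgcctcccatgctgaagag
Il2ra: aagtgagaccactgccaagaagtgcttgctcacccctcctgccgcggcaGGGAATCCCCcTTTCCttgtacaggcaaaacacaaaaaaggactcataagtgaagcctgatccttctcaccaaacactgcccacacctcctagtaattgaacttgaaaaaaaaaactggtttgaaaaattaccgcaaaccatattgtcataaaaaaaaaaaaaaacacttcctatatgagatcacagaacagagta
Il2rg: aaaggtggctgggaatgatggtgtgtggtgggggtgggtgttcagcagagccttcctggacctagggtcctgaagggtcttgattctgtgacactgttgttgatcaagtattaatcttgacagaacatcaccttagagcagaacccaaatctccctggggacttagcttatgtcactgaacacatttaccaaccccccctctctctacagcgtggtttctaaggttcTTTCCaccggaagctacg

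The NFAT core occurred 2 times before Il2, at 137 to 133 and 47 to 43 bases before the start, and 1 time each before Il2ra and Il2rg. Of 32851 promoter stretches of the same length, 54.8% held the core and 20.8% held it at least 2 times. The NF-kB form occurred before Il2ra, at 201 to 192 bases, and 17.2% of the stretches held it. A TATAAA box, searched on the gene's strand, lay 31 to 26 bases before the start of Il2, a feature of 7.46% of the stretches. TGANTCA (AP-1), TTCNNNGAA (STAT) and ATGNAAAT (octamer) had no match on either strand in the 3 stretches. These matches are letters in the reference and no measure of binding. Only exact matches to these forms were searched, so a stretch without a match may still hold a variant site.

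Il2, the cytokine itself, was higher in 3 of the 4 dimethyl succinate libraries than in any of the vehicle group. It stood at 110, 101, 109 and 84.0 CPM in vehicle replicates 1 to 4. Under dimethyl succinate it stood at 109, 129, 126 and 137 CPM. Dimethyl succinate replicate 1 lay between the vehicle libraries, and vehicle replicate 4 was the lowest of all 8. The groups therefore overlapped in 1 library. Group means were 101 ± 11.9 and 125 ± 11.5 CPM (SD, n = 4), and the log2 fold change was 0.31 ± 0.0916 (SE), or 24.3% higher. Without vehicle replicate 4 it was 0.24 ± 0.0623, or 17.8% higher, against a vehicle mean of 107 ± 4.56 CPM (SD, n = 3). With each of the other libraries left out it stayed positive, and the value ran from 0.24 to 0.38 over all 8 such fits. The authors' deposited table gives 0.31.

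The values of Il2 rested on 1208 to 2158 counts per library. Counting alone gives a coefficient of variation of 2.15% to 2.88% at that depth. The measured one was 11.7% under vehicle, 4.28% without vehicle replicate 4, and 9.16% under dimethyl succinate. Most of the spread of Il2 between libraries thus lay above counting error.

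**Figure D1:**
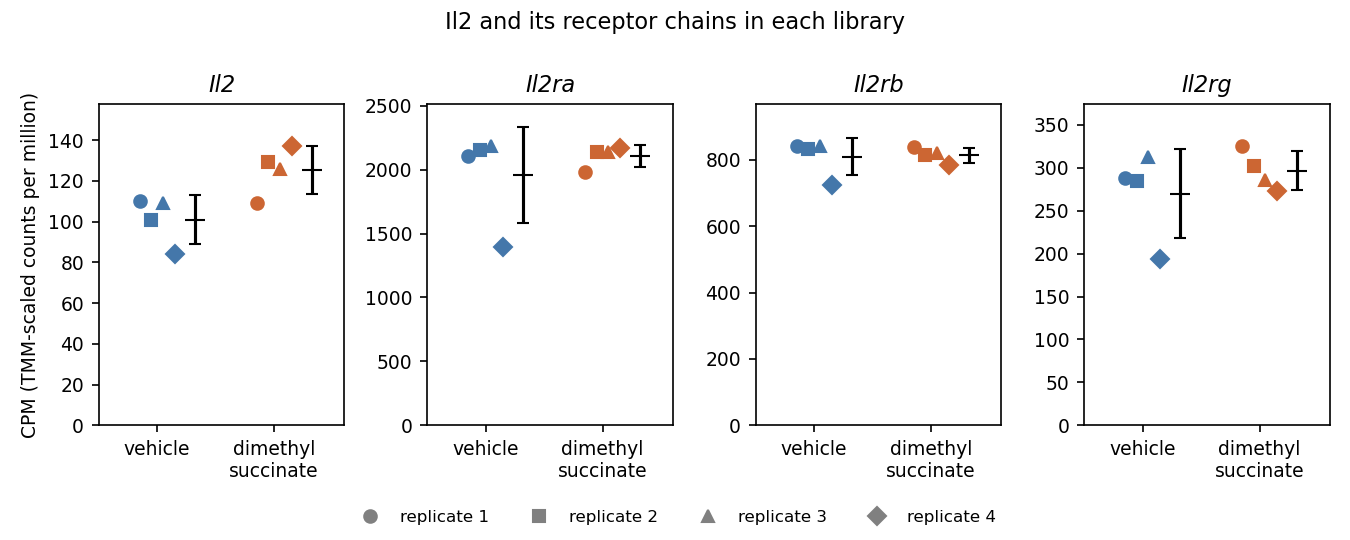
CPM of Il2, Il2ra, Il2rb and Il2rg (vertical axes from 0) in the 4 vehicle (blue) and 4 dimethyl succinate (orange) libraries, with marker shapes for replicate numbers and black bars for the mean ± SD. Vehicle replicate 4 (blue diamond) is the lowest library for every member, and for Il2 the dimethyl succinate replicates 2, 3 and 4 lie above all vehicle libraries.

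Il2ra, the alpha chain, was the most abundant member. Its vehicle libraries stood at 2104, 2153, 2183 and 1397 CPM. Its dimethyl succinate libraries stood at 1980, 2141, 2136 and 2168 CPM. Apart from the low vehicle replicate 4, all libraries lay within the range from dimethyl succinate replicate 1 to vehicle replicate 3, so the groups overlapped. The log2 fold change was 0.10 ± 0.122 (SE) with all libraries and -0.027 ± 0.0455 without vehicle replicate 4, a change of sign. At 20079 to 35877 counts per library, counting error was 0.528% to 0.706%, below the measured 1.88% among the other 3 vehicle libraries.

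Il2rb, the beta chain, was the steadiest member. It stood at 841, 832, 841 and 725 CPM under vehicle. Under dimethyl succinate it stood at 839, 813, 819 and 783 CPM. Vehicle replicate 4 was again lowest, and the other 3 vehicle libraries varied by 0.594%, less than the 0.875% to 0.943% that counting gives. The log2 fold change was 0.0065 ± 0.0687 (SE), and -0.043 ± 0.0442 without vehicle replicate 4. It was also below 0 without dimethyl succinate replicate 1, at -0.006. Dimethyl succinate replicates 2, 3 and 4 lay below vehicle replicates 1 to 3, the reverse of their place in Il2.

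Il2rg, the common gamma chain, stood at 288, 284, 312 and 194 CPM under vehicle. Under dimethyl succinate it stood at 325, 302, 286 and 273 CPM. The groups overlapped, with the highest value in dimethyl succinate replicate 1, the library where Il2 and Il2ra were lowest in that group. The log2 fold change was 0.14 ± 0.123 (SE), and 0.011 ± 0.0548 without vehicle replicate 4. Of the 4 members, 0 had groups that did not overlap, where 2.5% of all tested genes lay wholly higher and 2.32% wholly lower under dimethyl succinate.

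**Figure D2:**
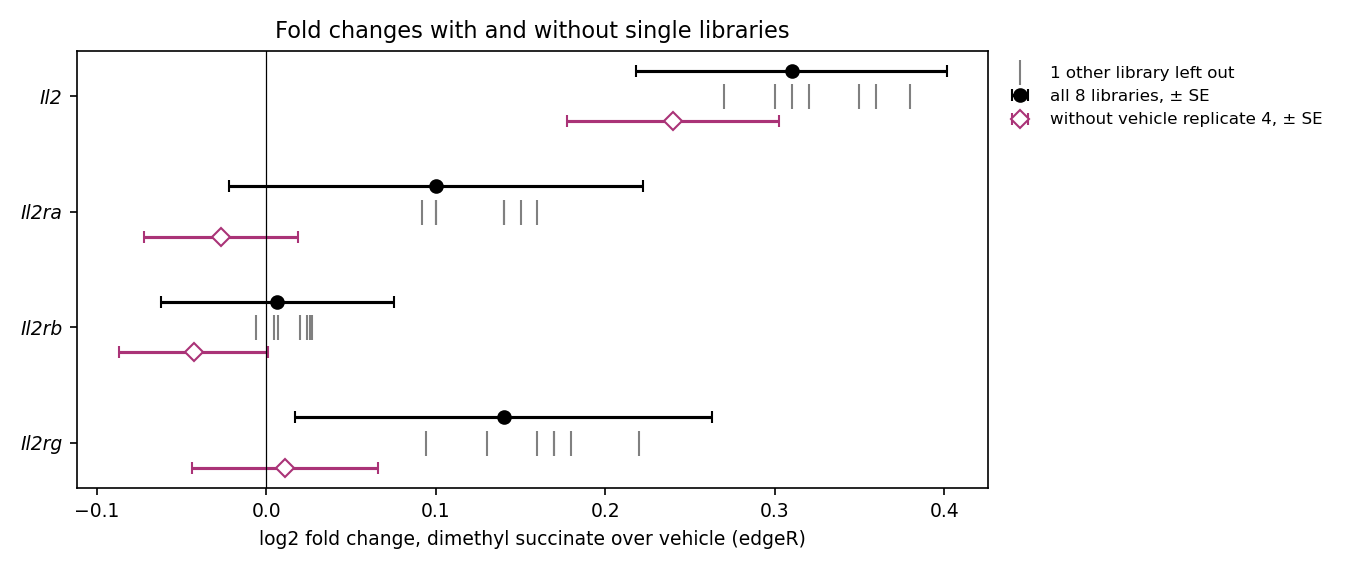
Log2 fold change of each member, dimethyl succinate over vehicle, with all 8 libraries (black, ± SE), without vehicle replicate 4 (open purple, ± SE) and with each other library left out (grey ticks). Il2 moves from 0.31 to 0.24 without vehicle replicate 4, while Il2ra, Il2rb and Il2rg move to -0.027, -0.043 and 0.011.

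Vehicle replicate 4 was low for all members, but not by the same amount. It held 65.1% of the mean of the other 3 vehicle libraries for Il2ra, 66.0% for Il2rg, 78.9% for Il2 and 86.5% for Il2rb. On the log2 scale its deviations were -0.62, -0.60, -0.34 and -0.21, where the median over genes of at least 10 CPM was 0.015 with an SD of 0.38. Of those genes, 4.36% were lower still than Il2ra, 4.78% than Il2rg, 14.6% than Il2 and 24.4% than Il2rb. Foxp3, the lineage factor of regulatory T cells, moved with it: 77.0, 70.5, 72.7 and 37.0 CPM in vehicle replicates 1 to 4, and 75.3 to 85.6 under dimethyl succinate. The 11 regulatory T cell markers summed to 1155 to 1339 CPM under vehicle, 1290 to 1339 without replicate 4, and 1355 to 1398 under dimethyl succinate. They did not move alike when vehicle replicate 4 was left out. The log2 fold change fell for Foxp3 (0.30 to 0.11), Ikzf2, Ikzf4, Ctla4, Tnfrsf18, Lrrc32 and Gpr83. It rose for Tigit (0.077 to 0.17), Nrp1 (0.055 to 0.15), Capg (0.034 to 0.11) and Il10 (0.20 to 0.21). Of the 11, all had a log2 fold change above 0, or 9 without vehicle replicate 4, where 49.6% and 50% of all tested genes did. Of the 11, 2 were nominally higher, against 2.93% of all tested genes. Vehicle replicate 4 was not low for these markers alone. Cd4 stood at 438, 454, 447 and 316 CPM in vehicle replicates 1 to 4. The 9 helper T cell markers summed to 2368 CPM in replicate 4 and 2656 to 2775 in the others, and the 8 B cell markers to 55.9 and 86.4 to 97.3. Cytotoxic and natural killer markers summed higher in it, at 79.7, as did erythroid, platelet and stromal markers, at 78.6 against 58.7 to 69.4. In bulk RNA fewer cells of a type and less RNA per cell cannot be told apart, and the part of these markers in the levels of the members was not tested.

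Scaled by gene length, the order of levels was Il2ra, Il2rb, Il2rg and Il2 in both groups. Under vehicle Il2ra stood at 342 ± 64.9 FPKM (fragments scaled by gene length and library size), Il2rb at 188 ± 12.7, Il2rg at 112 ± 21.3 and Il2 at 87.8 ± 10.1 (SD, n = 4). Under dimethyl succinate they stood at 366 ± 15.1, 188 ± 5.4, 123 ± 9.44 and 109 ± 9.98 FPKM. Il2ra and Il2rb were apart in every library. Il2rg and Il2 were not: their ranges overlapped in both groups, under vehicle through replicate 4, where Il2rg was at 81.3 FPKM. In vehicle replicates 1 to 3 Il2rg stood at 118 to 130 and Il2 at 88.0 to 95.4 FPKM. In dimethyl succinate replicate 4 Il2 was at 1.05 times Il2rg. By mean FPKM under vehicle Il2ra ranked 105 of all genes listed, Il2rb 209, Il2rg 373 and Il2 512, and under dimethyl succinate they ranked 93, 198, 322 and 381.

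The balance between receptor chains was described per library by the ratio of their FPKM. Il2ra over Il2rb was 1.88, 1.94, 1.95 and 1.45 in vehicle replicates 1 to 4. It was 1.77, 1.98, 1.96 and 2.08 under dimethyl succinate. The log2 means differed by 0.12, and by 0.015 without vehicle replicate 4, which alone sat low. Il2ra over Il2rg did not set vehicle replicate 4 apart, at 3.06, 3.17, 2.93 and 3.01, and spread more widely under dimethyl succinate, from 2.54 to 3.33. Il2rb over Il2rg ran from 1.5 to 1.63 in vehicle replicates 1 to 3, was 2.08 in replicate 4, and ran from 1.43 to 1.6 under dimethyl succinate. The 3 chains together summed to 681, 686, 706 and 495 FPKM under vehicle and to 670 to 687 under dimethyl succinate.

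Set against the chains, Il2 was higher under dimethyl succinate relative to Il2rb. Il2 over Il2rb was 0.489, 0.456, 0.484 and 0.435 in vehicle replicates 1 to 4. It was 0.489, 0.594, 0.578 and 0.655 under dimethyl succinate, where replicate 1 equalled vehicle replicate 1 to 3 digits. The log2 means were -1.10 ± 0.0794 and -0.80 ± 0.175 (SD, n = 4). Relative to Il2ra the groups overlapped through vehicle replicate 4 (0.3), with 0.235 to 0.26 in the other vehicle libraries and 0.276 to 0.315 under dimethyl succinate. Relative to Il2rg it stood at 0.796, 0.745, 0.727 and 0.903 under vehicle and at 0.702, 0.891, 0.921 and 1.05 under dimethyl succinate. Of the treated values, 2 exceeded the whole vehicle range, 1 fell short of it, and 3 exceeded vehicle replicates 1 to 3.

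Of the 7 ratios computed, Il2 over Il21 left the widest gap between the groups; it was chosen after the values were seen. Il21 encodes another common gamma chain cytokine, a product of follicular helper T cells, and is a protein-coding neighbour of Il2, 96800 bases away on the same strand. Il21 stood at 232, 242, 221 and 178 CPM under vehicle. Under dimethyl succinate it stood at 172, 206, 208 and 206 CPM. The ratio of Il2 to Il21 in FPKM was 2.17, 1.92, 2.25 and 2.16 in vehicle replicates 1 to 4. Under dimethyl succinate it was 2.92, 2.87, 2.79 and 3.04, above every vehicle library, vehicle replicate 4 included. The log2 means were 1.09 ± 0.0998 and 1.54 ± 0.0527 (SD, n = 4), a difference of 0.45 that ran from 0.40 to 0.48 with single libraries left out. The log2 fold change of Il21 alone was -0.14 ± 0.0945 (SE) (edgeR adjusted p 0.804), and -0.23 ± 0.0585 without vehicle replicate 4, where the adjusted p was 0.128.

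**Figure D3:**
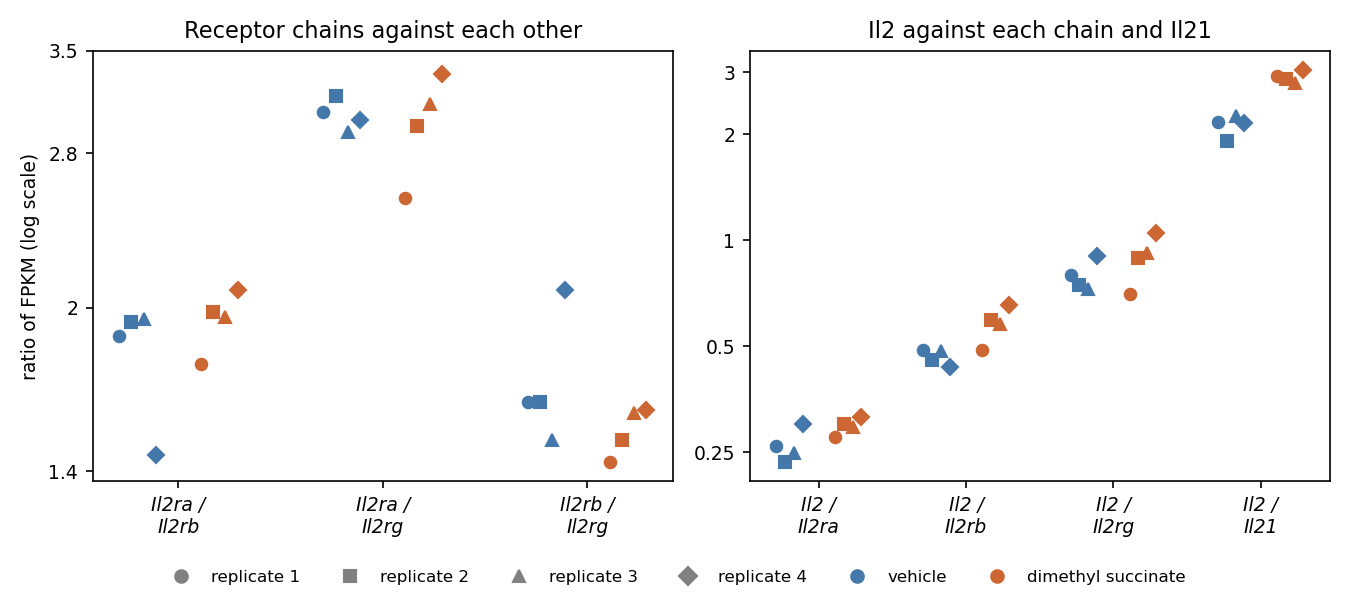
Ratios of FPKM per library on log axes, receptor chains against each other (left) and Il2 against each chain and Il21 (right), with vehicle in blue, dimethyl succinate in orange and marker shapes for replicate numbers. Il2 over Il21 lies at 1.92 to 2.25 under vehicle and 2.79 to 3.04 under dimethyl succinate, whereas vehicle replicate 4 sets the spread of Il2ra over Il2rb and Il2rb over Il2rg.

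Neighbours of the members gave no nominal call with all 8 libraries. Of 22 listed genes close to the 4 loci, Il21 among them, 19 were tested and 9 lay above 0. In either direction 0 were nominal, where 2.93% of all tested genes were higher and 2.83% lower, so 0 of 19 lay near those shares. Without vehicle replicate 4, Il21 was the 1 that was nominal, and it was lower, as were 4.12% of all tested genes. Il15ra, the private chain of the interleukin-15 receptor, lies 12097 bases from Il2ra and had 22.3 ± 6.23 CPM in the vehicle group and 27.4 ± 4.46 with dimethyl succinate (SD, n = 4). Its log2 fold change was 0.30 ± 0.199 (SE), or 0.12 without vehicle replicate 4. Rbm17, a splicing factor gene 38654 bases from Il2ra, was at -0.15 ± 0.0878, or -0.055 without that library.

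Among the other receptor chains of the common gamma chain family, those for interleukins 21 and 4 reached levels like Il2rg itself. Il21r stood at 149 ± 5.39 FPKM under vehicle and 150 ± 5.81 under dimethyl succinate, and Il4ra at 118 ± 3.19 and 113 ± 6.48 (SD, n = 4). Il7r, the receptor chain of naive and memory T cells, stood at 7.95 ± 1.2 and 7.99 ± 0.782 FPKM, Il15ra at 4.99 ± 1.39 and 6.14 ± 1, and Il9r at 0.246 ± 0.0845 and 0.175 ± 0.0533. Of the 5 tested, 0 were nominal in either direction, where 2.93% of all tested genes were higher and 2.83% lower. With so few genes 0 lies near those shares. Of the cytokines of the family Il2 was the highest per length, above Il21 at 41.4 ± 5.21 and 37.4 ± 3.32 FPKM, Il9 at 16 ± 5.62 and 15.7 ± 4.08, and Il4 at 9.15 ± 1.94 and 8.41 ± 0.498. Il15, made mainly by myeloid and stromal cells, was at 0.372 ± 0.13 and 0.444 ± 0.0996 FPKM on 9 to 20 counts, and Il7 had 0 to 3 counts per library. Of the 4 other cytokines tested 0 were nominal with all 8 libraries, against the same shares of 2.93% and 2.83%. Without vehicle replicate 4, Il21 was the 1 of these 4 that was nominal, and it was lower, as were 4.12% of all tested genes.

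**Figure D4:**
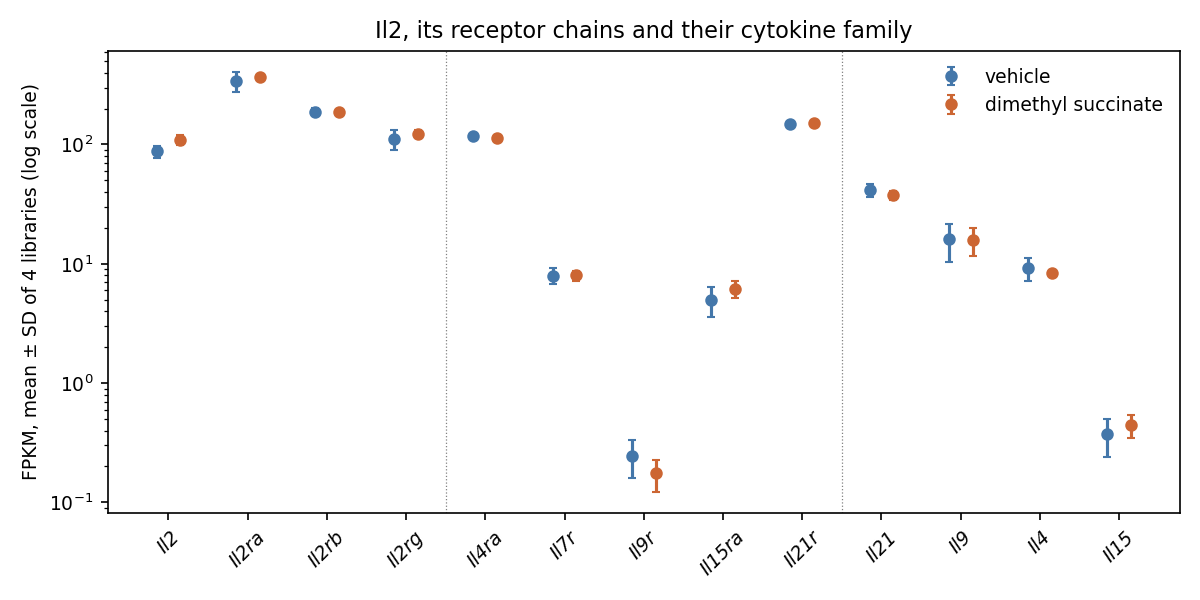
Mean FPKM ± SD of 4 libraries on a log axis for Il2 and its receptor chains, the other receptors of the common gamma chain family and the other cytokines of the family, under vehicle (blue) and dimethyl succinate (orange). Il2ra is highest at 342 and 366 FPKM, Il21r and Il4ra lie near Il2rg, and Il9r and Il15 are lowest of the genes drawn. Il7, with 0 to 3 counts per library, is not drawn.

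Of the signalling genes downstream of the receptor 0 passed over all genes. Jak1, which binds the beta chain, stood at 405 ± 12.7 and 384 ± 9.6 CPM, and Jak3, which binds the gamma chain, at 345 ± 2.57 and 367 ± 25.4 under vehicle and dimethyl succinate (SD, n = 4). Stat5a stood at 901 ± 42.3 and 959 ± 53 CPM and Stat5b at 401 ± 9.54 and 418 ± 14.8. Of 21 signal transducers tested 14 lay above 0, 1 was higher and 0 were lower at nominal p, where 2.93% of all tested genes were higher and 2.83% lower, and the median log2 fold change was 0.043 against -0.0011 over all genes. The 1 was Mtor, a kinase of growth control, at 0.16 ± 0.0587 (SE), and it kept 0.16 without vehicle replicate 4. Without that library 2 of the 21 were nominally higher, Mtor and Akt1 (at 0.12), and 0 lower, with a median of 0.021. Of all tested genes 4.43% were higher and 4.12% lower in that fit.

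Of the feedback inhibitors and target genes of the pathway 0 passed with all 8 libraries either. Cish, a direct STAT5 target that dampens the receptor, stood at 577 ± 45.3 and 581 ± 54.6 CPM (SD, n = 4), and its log2 fold change was 0.012 ± 0.0827 (SE). Socs1 and Socs3, which inhibit JAK kinases, were at -0.10 ± 0.0551 and -0.12 ± 0.064. The phosphatase genes Ptpn2 and Ptpn6 were at -0.17 ± 0.0797 and 0.15 ± 0.0728. Of the 10 feedback inhibitors 4 lay above 0 and 0 were nominal, where 2.93% of all tested genes were nominally higher and 2.83% lower. Without vehicle replicate 4, Ptpn2 was the 1 that was nominal, lower at -0.15, where 4.12% of all tested genes were lower. Of 25 genes induced by interleukin-2 and STAT5, 16 lay above 0, with a median of 0.038, where 49.6% of all tested genes did. Nominally higher was 1, Il10, an anti-inflammatory cytokine, at 0.20 ± 0.088, against 2.93% of all tested genes. Bcl2, a survival factor, was at -0.13 ± 0.0702, or -0.17 ± 0.0513 without vehicle replicate 4. Foxp3 was at 0.30 ± 0.187, or 0.11 without that library. In that fit 2 of the 25 were nominally higher and 2 lower, Bcl2 among the lower. Of all tested genes 4.43% were higher and 4.12% lower in it. Of 8 genes repressed by the pathway 4 lay above 0 and 0 were nominal with all 8 libraries, where 2.93% of all tested genes were higher and 2.83% lower. These genes include Il7r at 0.011 ± 0.112 and Bcl6, the factor of follicular helper T cells, at 0.32 ± 0.151.

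Factors known to drive Il2 transcription were counted next. Of 18 activators 11 lay above 0, where 49.6% of all tested genes did. Their median was 0.095, or 0.036 without vehicle replicate 4. Nominally higher were 3 and lower 0, against 2.93% and 2.83% of all tested genes. The 3 were Fosl2, an AP-1 subunit, Nfatc1, a calcineurin-dependent factor, and Rel, the NF-kB subunit c-Rel. Their log2 fold changes were 0.26 ± 0.0686, 0.24 ± 0.0888 and 0.14 ± 0.057 (SE), and that of Nfatc1 was 0.15 without vehicle replicate 4. Fosl2 stood at 101 ± 5 and 122 ± 9.37 CPM (SD, n = 4). Without vehicle replicate 4, 6 of the 18 were higher and 1, Cd28, the costimulatory receptor, was lower at -0.19 ± 0.0501, where 4.43% of all tested genes were higher and 4.12% lower. Of 9 repressors 6 lay above 0, with a median of 0.07, and 1 was higher, Nab2, a corepressor of EGR factors, at 0.32 ± 0.0782 (SE), from 42.7 ± 3.78 to 53.1 ± 2.25 CPM (SD, n = 4). Ikzf1, the repressor Ikaros, was at 0.10 ± 0.0674. With vehicle replicate 4 left out, 1 of the 9 was nominally higher, Nab2 at 0.30, and 1 lower, Ikzf3, the Ikaros family member Aiolos, at -0.17 ± 0.0464. Of these regulators 0 passed over all genes, with or without vehicle replicate 4.

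Proteins that bind cytokine messenger RNA, several of which shorten the life of the Il2 transcript, had 8 of 14 genes above 0, a median of 0.047 and 0 nominal calls. With all 8 libraries 2.93% of all tested genes were nominally higher and 2.83% lower. Zc3h12a, the RNase Regnase-1, was at 0.14 ± 0.0703 (SE) and Zfp36, the decay factor tristetraprolin, at -0.12 ± 0.0697. The median was -0.0046 without vehicle replicate 4. In that fit 2 were nominally higher (Zc3h12a at 0.19 and Zc3h12d at 0.10) and 2 lower (Zfp36 at -0.15 and Zfp36l2 at -0.11). Of all tested genes 4.43% were higher and 4.12% lower in it.

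Other cytokines of activated helper T cells lay on both sides of 0. Of 15 tested 10 lay above it, with a median of 0.14, where 49.6% of all tested genes did. Nominally higher were 2 and lower 1, against 2.93% and 2.83% of all tested genes. Il10 and Il13, a type 2 cytokine, were higher, the latter at 0.31 ± 0.141 (SE) and 0.17 without vehicle replicate 4. Lif, a cytokine of the interleukin-6 family, was lower at -0.21 ± 0.0528, with 264 to 277 CPM under vehicle and 231 to 238 under dimethyl succinate. Ifng, the signature cytokine of T helper 1 cells, stood at 140 ± 34.5 and 169 ± 31.6 FPKM (SD, n = 4), above Il2 in level, and Tnf at 56 ± 10.4 and 53.9 ± 2.48. Their log2 fold changes were 0.28 ± 0.176 and -0.05 ± 0.112 (SE), or 0.45 and -0.16 without vehicle replicate 4. In that fit 4 of the 15 were nominally higher and 3 lower, where 4.43% of all tested genes were higher and 4.12% lower.

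**Figure D5:**
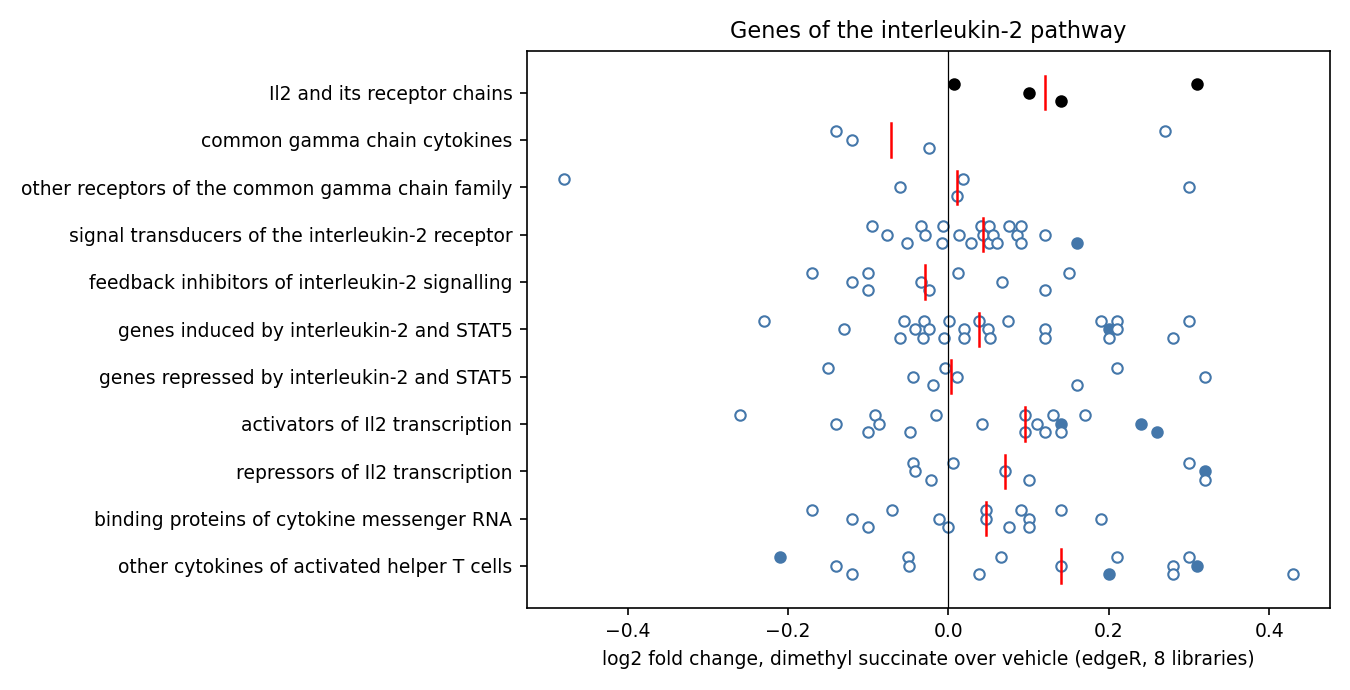
Log2 fold change, dimethyl succinate over vehicle, of each tested gene in the listed groups, with a red line at each group's median, filled blue points for nominal calls (p below 0.05 before adjustment) and black points for Il2 and its receptor chains, which are shown without a test. Filled points are few, with 3 among activators of Il2 transcription at 0.14 to 0.26, and the medians lie between -0.072 and 0.14.

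Over the 136 distinct genes of these groups and of the genomic neighbours, 7 were nominally higher (5.15%) and 1 lower (0.735%), against 2.93% and 2.83% of all tested genes, and 0 passed over all genes with all 8 libraries. The count of higher genes depended on the libraries, at 3 without dimethyl succinate replicate 3 and 16 (11.8%) without vehicle replicate 4. That of lower genes was 11 (8.09%) without vehicle replicate 4, where 4.43% of all tested genes were higher and 4.12% lower. It was 5 without vehicle replicate 1, and 2 when vehicle replicate 2, vehicle replicate 3, dimethyl succinate replicate 2 or dimethyl succinate replicate 4 was left out.

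Genes whose log2 CPM most resembled that of a member over the 8 libraries, among 8915 genes of at least 10 CPM, are given as a description in which all genes share the same libraries. Each was picked for the highest r among 8915 genes over few libraries, so high values are in part a product of that choice. For Il2 they were Ece1 (Pearson r = 0.975), Runx2 (0.964) and Arhgap21 (0.963). Without vehicle replicate 4 their r was 0.968, 0.916 and 0.925, over libraries already used to pick them. Runx2, a transcription factor of the Runt family, had 42.6 CPM in the vehicle group and 54.4 with dimethyl succinate (log2 fold change 0.35 ± 0.0908, SE), and Ece1, an endopeptidase that activates endothelin, at 85.7 and 96.2 CPM. For Il2ra they were Ndufb4, a subunit of respiratory complex I, Ifi27l2a and the mitochondrial ribosomal RNA mt-Rnr1, with r of 0.992, 0.991 and 0.991. Those values rested in part on vehicle replicate 4, without which r was 0.797, 0.752 and 0.877. For Il2rb they were Lef1, a transcription factor of T cells, H2-DMa and the pseudogene Rpl28-ps1 (0.992, 0.99 and 0.99), and for Il2rg Sh3bp1, Wbp2 and Trac, the constant region of the T cell receptor alpha chain (0.997, 0.992 and 0.99), all above 0.9 without that library.

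With group means removed, the genes most like Il2 were Zfp758, Tmpo and Zfp36l2 (r = 0.987, 0.983 and 0.981). With group means kept, their r was 0.611, 0.566 and 0.216 over the 8 libraries, and 0.222, 0.203 and -0.142 without vehicle replicate 4. With group means removed, those most like Il2ra were Atp6v0e, Rpl9 and Ndufb4 (0.995, 0.995 and 0.992). Most like Il2rb were Fam222b, Qrich1 and Grina (0.998, 0.995 and 0.994), and most like Il2rg Sh3bp1, Trac and Agpat1 (0.997, 0.995 and 0.993). With group means kept and vehicle replicate 4 left out, the Il2rb genes had r of 0.587, 0.696 and 0.565, and Sh3bp1 kept 0.973 with Il2rg. Without vehicle replicate 4, and with group means kept, the 3 nearest to Il2 were Dip2b, Ttc19 and Fam160b1 (0.992, 0.986 and 0.971). Those nearest to Il2ra were Supt16, Dld and Golt1b (0.992, 0.983 and 0.982). Over all 8 libraries the r of Supt16 with Il2ra was -0.834, so which genes were alike changed with that library. For Il2rb they were Herpud1, Rnf167 and Il4ra (0.989, 0.986 and 0.986), and for Il2rg Cant1, Det1 and Sh3bp1 (0.982, 0.977 and 0.973). Of these, Sh3bp1 was the 1 gene near the same member under all 3 measures.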

How the data were processed

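The authors deposited 1 table with raw counts per gene and library and FPKM values, per the file headers. Per the submitters' processing notes reads were aligned with HISAT2 2.0.5. The counting tool, annotation, build and use of strand were not given in these sources. Of 54495 genes matched to GENCODE M21, 99.17% had an equal start or end. The authors also deposited group means, taken here as a normalised signal, log2 fold changes, p-values and adjusted p-values, and gene lengths, per the file headers. Of these, the log2 fold change of Il2 and the lengths were used.

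Counts were tested with edgeR 4.0.16 in R 4.3.3 (filterByExpr, TMM, robust quasi-likelihood F test, 4 against 4 libraries, no covariate, Benjamini-Hochberg over all tested genes, two-sided). SE came from the F statistic. CPM used TMM-scaled library sizes, and log2 CPM a prior count of 2. Ratios between genes used FPKM. The test was run on simulated data before use. The lowest chi-square per gene between replicates was 2.11, above the 1 of counting noise, so none was treated as a copy of another. The members, gene lists and tests were chosen with earlier results of these data known. Named were the members, genes from among the 4 per list with the smallest unadjusted p, 9 genes whatever their values, and the 3 genes most like each member under each of 3 measures. The genes named from a list were not always the first by p. Cd4, Cd8a, Cd8b1, Nkg7, Zc3h12d, Ikzf3, Cd28, Ifng, Tnf, Il7, Gm20489 and Ntan1 were named after their values were seen. So were Ikzf2, Ikzf4, Ctla4, Tnfrsf18, Lrrc32, Gpr83, Tigit, Nrp1 and Capg. Alternatives were DESeq2 1.42.0, limma 3.58.1 (voom, and trend on log2(FPKM + 1) and log2(FPKM + 0.1)), other scalings and filters, a replicate block, and each library left out. Some genes within the rule are not reported here.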

Additional observations from a re-analysis of the deposited data

Results flagged for a closer look

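In groups of 4 libraries, the gap of the lowest or highest library to its nearest neighbour was set against the range of the group, with a critical ratio of 0.829 that chance passes in about 1 of 20 groups. Of 22 groups checked, 4 passed. The groups shared libraries and the ratios shared genes, so they are not independent. In vehicle replicate 4, Il2ra at 1397 CPM had a ratio of 0.898, Il2rb at 725 CPM a ratio of 0.925, and the log2 FPKM ratio of Il2ra over Il2rb, at 0.53, a ratio of 0.876. In dimethyl succinate replicate 1, Il2ra at 1980 CPM had a ratio of 0.831, with the other 3 libraries of its group between 2136 and 2168 CPM.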

How the results depend on the processing

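The log2 fold change of Il2 stayed positive in every alternative run, from 0.31 to 0.33 across tools, scalings, filters and units and from 0.24 to 0.38 with single libraries left out. Il2ra ran from -0.027 to 0.16, Il2rb from -0.043 to 0.027 and Il2rg from 0.011 to 0.22 with single libraries left out, and from 0.10 to 0.13, 0.0034 to 0.02 and 0.14 to 0.16 otherwise. Below 0 were Il2ra without vehicle replicate 4, and Il2rb without that library or dimethyl succinate replicate 1. The difference in log2 Il2ra over Il2rb ran from 0.015 to 0.16. Genes past an adjusted p of 0.05 numbered 0 to 28 with single libraries left out, 6 with no low-count filter and 4 in DESeq2 (Clk1, Prag1, Rpl17-ps10 and Trib2, named after their values were seen). Listed genes at an unadjusted p below 0.05 numbered 3 to 16 higher and 1 to 11 lower with single libraries left out, and 3 were lower with no filter. The cause was not tested.

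The titles number the libraries 1 to 4 in both groups. Deviations of same-numbered libraries correlated at -0.014, 0.0112, 0.0557 and 0.13, and 3 of 8 libraries correlated best with their own number. The labels state no pairing, and these values cannot show whether same-numbered libraries shared an animal, culture or batch. With the replicate block 1 gene was called over all genes (CT010467.1), 13 listed genes were higher and 3 lower, and Il2 was at 0.32, Il2ra at 0.13, Il2rb at 0.0088 and Il2rg at 0.16.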
